A study of Rattus norvegicus with 8 samples.

Results

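The Slc25 genes encode the mitochondrial solute carriers, represented here by 57 probe sets for 39 genes, out of 14217 genes named on the array. A probe set, a group of short probes near the 3' end of a transcript, was counted where the platform annotation gave it a single gene entry, with a symbol starting with Slc25a. Slc25a37 was left out by that rule, and each gene was summarised by its probe set with the highest mean level. Whole blood RNA of male Wistar rats had been measured on 8 arrays, 4 for a normal diet and 4 for a high-fat diet. Each diet was given to 10 animals. The titles call the arrays biological replicates and do not say how they were drawn from these animals. The animals were bought at 7 weeks of age, acclimated for 1 week on the normal chow, kept on their diets for 8 weeks and bled after an overnight fast. No genetic change was named for either group, and the group that also received mulberry leaf is not analysed here.

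Carriers of this family sit mostly in the inner mitochondrial membrane and exchange metabolites between the cytosol and the matrix. They bring in ADP, phosphate and fuel molecules, let ATP out, and move the amino acids and cofactors that matrix enzymes need. In blood these genes serve white cells, platelets and those immature red cells that still hold mitochondria, where heme synthesis begins. In whole blood, fewer cells of a type and less RNA per cell cannot be told apart.

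Levels are the values of the table the authors deposited, read as log2 intensities, and they hardly differed between arrays. All 57 Slc25 probe sets had the same level to 2 decimals in all 8 arrays. The SD over the 8 arrays ranged from 3.43e-07 to 4.36e-04 among them, with a median of 7.62e-06, against a median of 6.07e-06 over all 31042 probe sets tested. Differences of this size are not log2 ratios of RNA amount, so no fold change is given. Each difference is stated as a multiple of the pooled SD within the 2 diet groups of that probe set, called a within-group SD, and each array as its deviation from the mean of the 8 arrays in the same unit. As a check of the tissue, all 6 measured markers of red cell precursors, 6 of 7 of T cells, 5 of 6 of platelets, 3 of 4 of B cells, 3 of 5 of neutrophils, 2 of 4 of monocytes and 2 of 5 of natural killer cells lay above the 90th percentile of the probe sets, and none of the 5 of liver or the 5 of skeletal muscle did. Another 2 neutrophil markers lay below the median of the array.

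No Slc25 gene was distinguished between the diets. By limma, 0 of 39 genes passed an adjusted p of 0.05, where 0% of all probe sets passed, and each gene had an adjusted p of 1. Without adjustment 0 of the 57 probe sets had a p under 0.05, against 2.25% of all probe sets. In none of the 39 genes did the 4 high-fat values lie entirely above or below the 4 normal values. This occurred in 1.32% of all genes and 1.44% of all probe sets. The mean of the high-fat group was the higher one in 12 genes and the lower one in 27. Over all genes 47.4% were higher. With quantile normalization on top, 9 genes were higher, 16 lower and 14 equal, and 24.0% of all genes were higher. The median difference was -0.241 within-group SDs for the family and -0.0374 for all genes. Only 2 of the 39 genes, Slc25a18 and Slc25a27, differed by 1 within-group SD or more (5.13%, against 12.2% of all genes). Leaving out 1 array at a time, with the within-group SD of all 8 arrays kept as the unit here and below, moved the median of the family between -0.346 (without high-fat replicate 4) and -0.0624 (without high-fat replicate 3), and it was -0.0647 without normal replicate 1. With all arrays centred on their medians, which moves every probe set down by 6.60e-05 in the high-fat group relative to the normal group, 37 of the 39 genes were lower, and 2.38% of all genes were higher. The signs of the single genes below are those without centring.

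**Figure D1:**
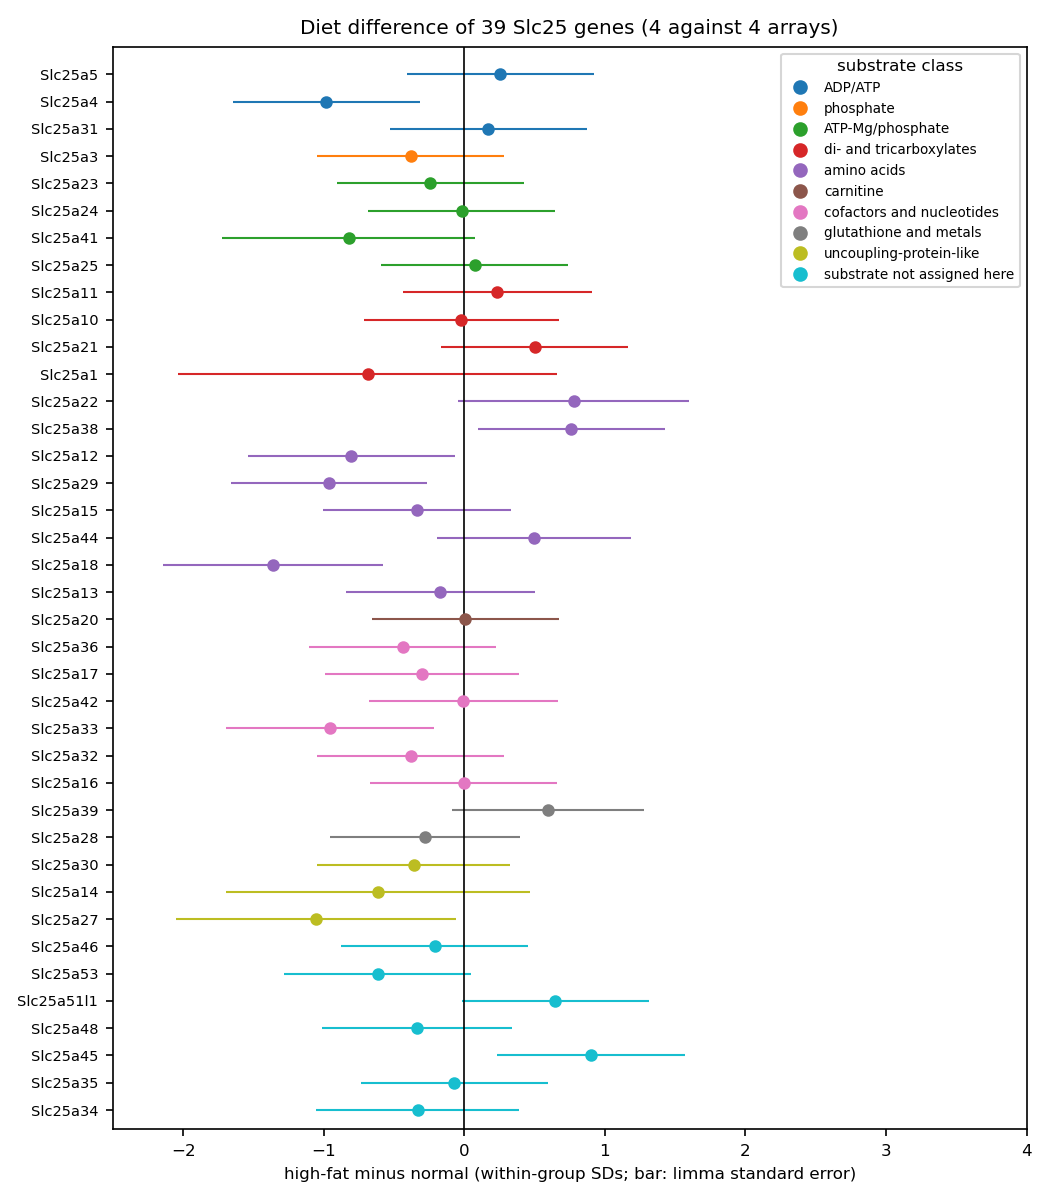
The horizontal axis gives the high-fat minus normal difference of each of the 39 genes in within-group SDs, with bars for the standard error of the limma fit, and colours give the transported substrate. The genes lie between -1.36 (Slc25a18) and 0.900 (Slc25a45), on both sides of 0 in most classes.

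The levels of the family were spread widely. Of the 39 genes, 30 had a mean above the median of all probe sets (6.60), 18 above the 75th percentile (7.13) and 8 above the 90th (7.81), while Slc25a34 alone lay below the 25th (6.22). The same shares were 76.9%, 46.2% and 20.5% of the family and 65.4%, 38.1% and 16.4% of all genes. The brightness of a probe set depends on its probes as well as on its transcript, so these positions show how far each carrier stood from the dim end of the array and not which transcript was the more abundant. The 8 above the 90th percentile were Slc25a39, Slc25a5, Slc25a3, Slc25a36, Slc25a22, Slc25a20, Slc25a38 and Slc25a30.

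**Figure D2:**
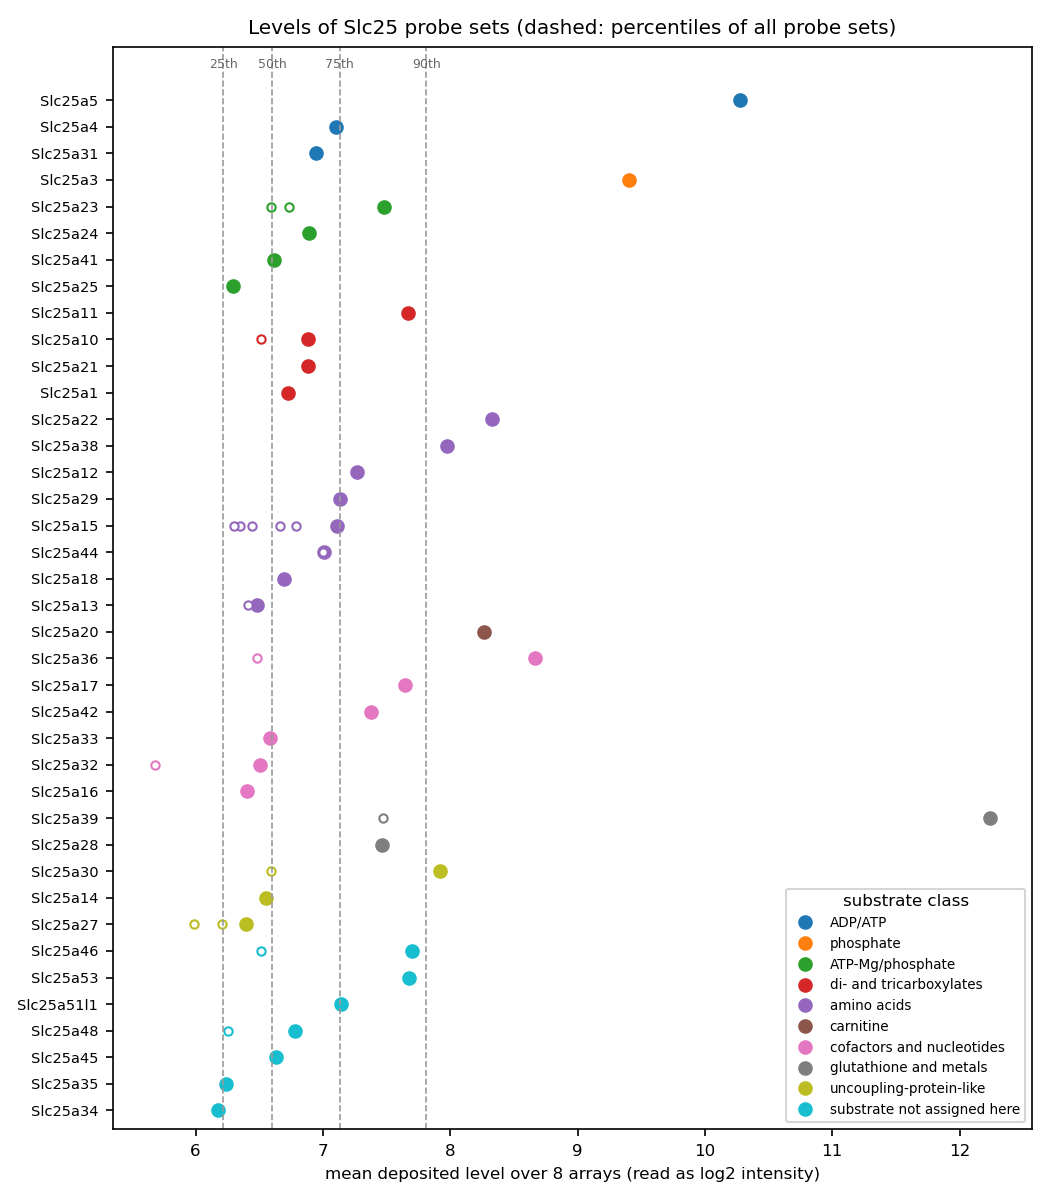
Each row is a gene and each circle a probe set, placed at its mean level over the 8 arrays, filled for the probe set that summarises the gene and open for further ones. Dashed lines mark the 25th, 50th, 75th and 90th percentiles of all probe sets. Slc25a39 (12.24), Slc25a5 (10.28) and Slc25a3 (9.41) stand farthest to the right.

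The carriers of adenine nucleotides and phosphate supply the ATP synthase and export its product. Slc25a5, the ADP/ATP exchanger of dividing cells, had a level of 10.28 in every array, at the 98.9th percentile. In the normal group its 4 arrays deviated by -0.426, 0.899, -1.42 and 0.441 within-group SDs, and in the high-fat group by -0.318, 0.286, -0.869 and 1.41. The 2 groups overlapped almost fully, the lowest array being normal replicate 3 and the highest high-fat replicate 4. The high-fat mean was 0.254 ± 0.665 (SE, n = 4 and 4) within-group SDs above normal, with an adjusted p of 1 by limma, and it was -0.177 without normal replicate 3. Leaving out high-fat replicate 4 instead gave -0.173. Slc25a4, the isoform known from heart and muscle, had a level of 7.10 and Slc25a31, the germ cell isoform, 6.94. The normal arrays of Slc25a4 stood at 0.00101, 1.23, -0.549 and 1.28, and the high-fat arrays at -1.24, 0.889, -1.46 and -0.157. High-fat replicates 1 and 3 were thus its lowest arrays, and the difference of -0.981 ± 0.667 (SE) had the smallest p among the adenine nucleotide exchangers, 0.186 before adjustment by limma. With the replicate numbers as a block this was the 1 gene of the family with an unadjusted p under 0.05. Slc25a31 differed by 0.171.

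Slc25a3 carries the phosphate that ATP synthesis consumes. Its level was 9.41, and its arrays deviated by 0.205, 1.37, -1.54 and 0.726 in the normal group and by -0.399, 0.227, -1.03 and 0.440 in the high-fat group. Replicate 3 was the lowest of each group, as it was for Slc25a5. The difference of -0.380 ± 0.665 (SE) lay within the spread of the arrays. With centring it was -1.74 in the within-group SDs of that fit. The p was then 0.0397 before adjustment and 0.191 after it by limma. The exchangers of ATP-Mg for phosphate adjust the adenine nucleotide pool of the matrix. Slc25a23, Slc25a24 and Slc25a25, which bind calcium, had levels of 7.48, 6.89 and 6.29, and Slc25a41, which lacks the calcium-binding part, 6.62. The normal arrays of Slc25a23 stood at 1.40, 0.353, 0.197 and -1.47 and its high-fat arrays at 0.102, 0.432, 0.236 and -1.25. All high-fat arrays lay inside the normal range. Slc25a23 differed by -0.241 ± 0.668 (SE), and its dimmer probe sets by -0.909 and -0.146. Slc25a41 had the smallest p of this class, 0.392 before adjustment by limma, with a difference of -0.823 ± 0.900 (SE). Its high-fat arrays lay between -0.804 and 0.174, inside the normal range of -1.07 to 2.03. The difference was -0.283 without normal replicate 2 and -1.32 without normal replicate 4. Slc25a24 and Slc25a25 differed by -0.0172 and 0.0738.

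The carriers of di- and tricarboxylates link the citric acid cycle to the cytosol. Slc25a11, which exchanges oxoglutarate for malate, had the highest level of the 4, 7.67. Its normal arrays deviated by -0.468, 0.750, -1.01 and 0.256 and its high-fat arrays by 0.910, -0.0446, -1.49 and 1.09. The high-fat arrays lay on both sides of the normal range, and the difference was 0.235 ± 0.672 (SE). The dicarboxylate carrier Slc25a10 (6.89), the oxodicarboxylate carrier Slc25a21 (6.88) and the citrate carrier Slc25a1 (6.72) lay between the median and the 75th percentile. Slc25a21 differed by 0.502 ± 0.665 (SE), which was the smallest p of this class (0.476 before adjustment by limma). High-fat replicate 1, at 1.71, was its highest array, and the difference was 0.0142 without it. Slc25a10 and Slc25a1 differed by -0.0201 and -0.688, and the second probe set of Slc25a10 by -0.134. Slc25a20 brings acylcarnitines, the transport form of long-chain fatty acids, to the matrix for oxidation. Its level was 8.26, and its arrays deviated by 0.755, -1.49, 0.143 and 0.572 in the normal group and by -1.37, 0.937, 0.183 and 0.270 in the high-fat group. Each group held 1 low array, and the difference was 0.00840 ± 0.665 (SE).

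Among the amino acid carriers, Slc25a22, which takes up glutamate, and Slc25a38, which takes up the glycine used in heme synthesis, had the highest levels, 8.33 and 7.98. In the normal group Slc25a22 stood at 0.271, 0.299, 0.0993 and -2.23, and in the high-fat group at 1.35, 0.442, -0.243 and 0.00573. Normal replicate 4 was low and high-fat replicate 1 high. The difference of 0.778 ± 0.821 (SE) was 0.166 without the former and 0.457 without the latter. The normal arrays of Slc25a38 stood at -1.09, 0.0170, 0.348 and -0.800 and its high-fat arrays at 2.11, 0.0860, 0.190 and -0.859. High-fat replicate 1 was the only array beyond the normal range on the upper side, and the difference was 0.761 ± 0.666 (SE). Markers of red cell precursors had their highest scaled level in the same array, 1.10, and 1.07 in high-fat replicate 3, against -0.840 to -0.366 in the normal arrays; their summed level was 63.69 to 63.70 in the normal group and 63.70 to 63.72 in the high-fat group, and no marker was at 0. Their part in the level of Slc25a38 was not tested.

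Slc25a18, a second glutamate carrier, had the smallest p of the 39 genes. Its level was 6.69, and its arrays stood at 1.56, -0.170, -0.276 and 1.61 in the normal group and at -0.497, -2.06, -0.282 and 0.113 in the high-fat group. High-fat replicate 4 lay within the normal range and the other 3 high-fat arrays below it. The difference was -1.36 ± 0.781 (SE), with a p of 0.126 before adjustment and 1 after it by limma. Slc25a12 and Slc25a13, which exchange aspartate for glutamate in the malate-aspartate shuttle, had levels of 7.27 and 6.48 and differences of -0.803 and -0.171. The second probe set of Slc25a13 stood at 0.861. Slc25a29, a carrier of basic amino acids (7.14), differed by -0.965, and Slc25a44, a carrier of branched-chain amino acids (7.01), by 0.497, with its second probe set at -0.531. Slc25a15 exchanges ornithine for citrulline in the urea cycle and was measured by 6 probe sets with levels from 6.30 to 7.11. They differed by -0.337, 2.02, 0.509, 1.49, 1.06 and -0.215 in order of falling level. The probe set at 1.49 had the smallest p of all 57, 0.0748 before adjustment and 1 after it by limma. The one at 2.02 had the smallest SD over the 8 arrays of the family, 3.43e-07, and a p of 0.554, because limma raised its within-group SD from 2.41e-07 to 1.11e-06.

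Carriers of cofactors and nucleotides comprised 6 genes, and all 6 had the lower mean in the high-fat group, none past the test. Slc25a42 and Slc25a16 hardly differed, and over all genes 47.4% were higher. With quantile normalization on top 3 of the class were lower, 2 higher and 1 equal. Slc25a36, a carrier of pyrimidine nucleotides, had a level of 8.66. Its arrays deviated by 0.472, 1.35, -1.30 and 0.362 in the normal group and by 0.417, 0.507, -1.39 and -0.418 in the high-fat group. Replicate 3 was again the lowest of each group, and the difference was -0.439 ± 0.665 (SE). Leaving out high-fat replicate 3 gave -0.0508, leaving out normal replicate 2 gave -0.0635, and leaving out normal replicate 3 gave -0.946. The second probe set of the gene, 2.18 lower in level, stood at 0.0158. Slc25a33, a related pyrimidine nucleotide carrier with a level of 6.59, had the smallest p of the class, 0.241 before adjustment by limma, and a difference of -0.953 ± 0.741 (SE). Its normal arrays stood at -0.164, -0.328, 2.34 and 0.0557 and its high-fat arrays at -0.776, 0.137, -0.0147 and -1.25. Normal replicate 3 stood far above the other 7 arrays. Slc25a17, a carrier of the peroxisomal membrane that moves coenzyme A and related cofactors (7.65), Slc25a42, a mitochondrial coenzyme A carrier (7.38), Slc25a32, linked to folate and FAD (6.51), and Slc25a16, linked to coenzyme A (6.40), differed by -0.301, -0.00573, -0.381 and -0.00306. A dimmer probe set of Slc25a32, at the lowest level of all 57 (5.68), stood at -0.601.

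Slc25a39, needed for the import of glutathione, had the highest level of the family, 12.24, at the 99.6th percentile. Its normal arrays deviated by 0.357, -0.341, -0.808 and -0.398 within-group SDs and its high-fat arrays by 1.09, 1.11, 0.664 and -1.67. In the high-fat group 3 arrays lay above all normal arrays and the remaining one, replicate 4, below them all. The difference was 0.595 ± 0.680 (SE), with a p of 0.411 before adjustment and 1 after it by limma. Without high-fat replicate 4 it was 1.25, and the groups did not overlap, as for 2.81% of all genes then. The p was then 0.0102 before adjustment and 1.00 after it by limma. In that array the platelet markers had their lowest scaled level, -1.51, and the monocyte and natural killer cell markers their highest, 2.16 and 1.91, with no marker at 0. The 6 platelet markers summed to between 56.4416 and 56.4422 in the normal arrays and between 56.4405 and 56.4422 in the high-fat arrays, the 4 monocyte markers to 30.596 to 30.601 and 30.597 to 30.612, and the 5 natural killer cell markers to 38.660 to 38.673 and 38.665 to 38.701. All 6 red cell precursor markers had their higher mean under the high-fat diet, where 47.4% of all genes were higher. Their scaled level lay between -0.0695 and 1.10 in those arrays, above all normal arrays. Of the other lists, 4 of 4 monocyte, 5 of 5 natural killer cell and 3 of 5 neutrophil markers were higher. For platelets it was 1 of 6, for B cells 1 of 4 and for T cells 0 of 7. The part of these markers in the level of Slc25a39 was not tested. The second probe set of Slc25a39 had a level of 7.47, 4.77 lower, and a difference of -0.550. Slc25a28, one of the iron importers called mitoferrins, had a level of 7.47 and differed by -0.282.

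**Figure D3:**
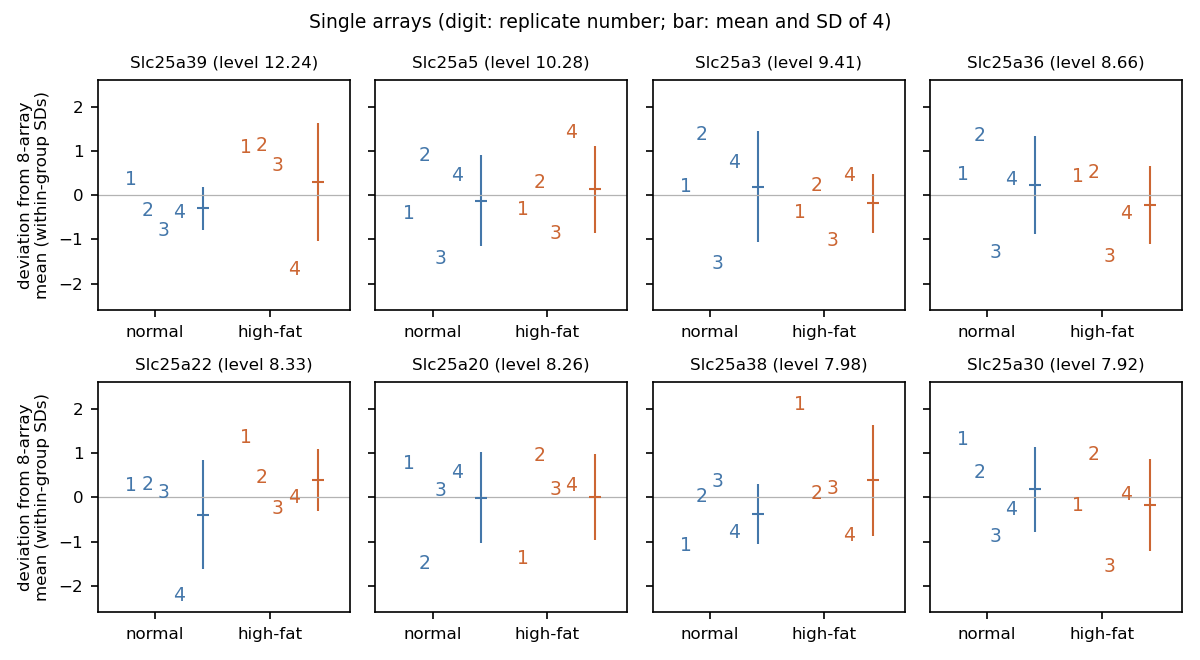
Panels show the 8 genes above the 90th percentile. Each digit is the replicate number of an array, placed at its deviation from the 8-array mean in within-group SDs, and bars give the mean and SD of the 4 arrays of a group. The groups overlap in each panel. In Slc25a39 high-fat replicate 4 lies lowest at -1.67, apart from the other high-fat arrays.

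The uncoupling-protein-like carriers resemble the proteins that let protons leak through the inner membrane. Slc25a30 had a level of 7.92, Slc25a14 6.55 and Slc25a27 6.39. All 3 had the lower mean in the high-fat group, at -0.360, -0.616 and -1.05, none past the test (with quantile normalization on top 2 lower and 1 equal). Over all genes 47.4% were higher. Slc25a30 stood at 1.31, 0.560, -0.881 and -0.267 in the normal group and at -0.188, 0.960, -1.56 and 0.0666 in the high-fat group, with an SE of 0.684 on its difference. High-fat replicate 3 was its lowest array and the other 3 high-fat arrays lay inside the normal range. Slc25a27 had the smallest p of this class, 0.327 before adjustment by limma. Its normal arrays stood at 2.26, 0.897, -0.520 and -0.527 and its high-fat arrays at -0.144, -0.869, -0.0969 and -0.994. Normal replicates 1 and 2 lay above all high-fat arrays and the other 2 normal arrays among them. The dimmer probe sets of the gene, at levels of 6.21 and 5.99, stood at -1.32 and 0.334. The second probe set of Slc25a30, at 6.59, stood at 0.0484.

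For 7 genes no substrate is given here. Slc25a46, a protein of the outer mitochondrial membrane with a part in mitochondrial shape, had the highest level, 7.70, followed by Slc25a53 (7.68), Slc25a51l1 (7.14), Slc25a48 (6.78), Slc25a45 (6.64), Slc25a35 (6.24) and Slc25a34 (6.18). Slc25a46 stood at 0.546, 0.521, -1.01 and 0.364 in the normal group and at -0.0702, 0.678, -1.81 and 0.784 in the high-fat group. Replicate 3 was its lowest array in each group, and its difference was -0.211 ± 0.666 (SE), with the second probe set at 0.372. Slc25a45 had the smallest p of these genes, 0.220 before adjustment by limma, and a difference of 0.900 ± 0.667 (SE). Its normal arrays stood at -0.584, -0.279, -1.57 and 0.630 and its high-fat arrays at -0.890, 0.873, 0.153 and 1.66. High-fat replicates 2 and 4 lay above all normal arrays. Slc25a53, Slc25a48, Slc25a34 and Slc25a35 differed by -0.617, -0.340, -0.331 and -0.0709, and the second probe set of Slc25a48 by 0.254.

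Slc25a51l1, named for its likeness to the NAD carrier Slc25a51, varied most between arrays among the members. Its SD over the 8 arrays was 4.36e-04, at the 99.0th percentile of all probe sets. Its normal arrays deviated by 1.05, -0.878, -0.886 and -0.582 and its high-fat arrays by -0.315, 0.645, 1.68 and -0.712. Normal replicate 1 and high-fat replicates 2 and 3 were the high ones, and the difference was 0.647 ± 0.665 (SE). A pair of probe sets that the annotation assigns to 2 gene numbers, both called Slc25a51, was not counted because of this double entry. The brighter of them, at a level of 9.29, had the same 3 arrays high, with 0.845, -1.31, -1.25 and -0.568 in the normal group and -0.0132, 1.16, 1.64 and -0.506 in the high-fat group, and a difference of 1.14. The dimmer of the pair, at a level of 8.57, differed by 1.02. Both differences exceed the highest of the 39 genes, 0.900. Both SDs over the arrays, 8.75e-04 and 7.73e-04, exceed that of Slc25a51l1. Whether transcripts of Slc25a51l1 and Slc25a51 reach the same probes was not tested. The other members with an SD above 1e-04 were Slc25a5 (3.01e-04), Slc25a16 (1.87e-04), Slc25a36 (1.70e-04) and Slc25a20 (1.66e-04). Together they made 5 of the 57 probe sets, 8.77%, against 3.83% of all probe sets.

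**Figure D4:**
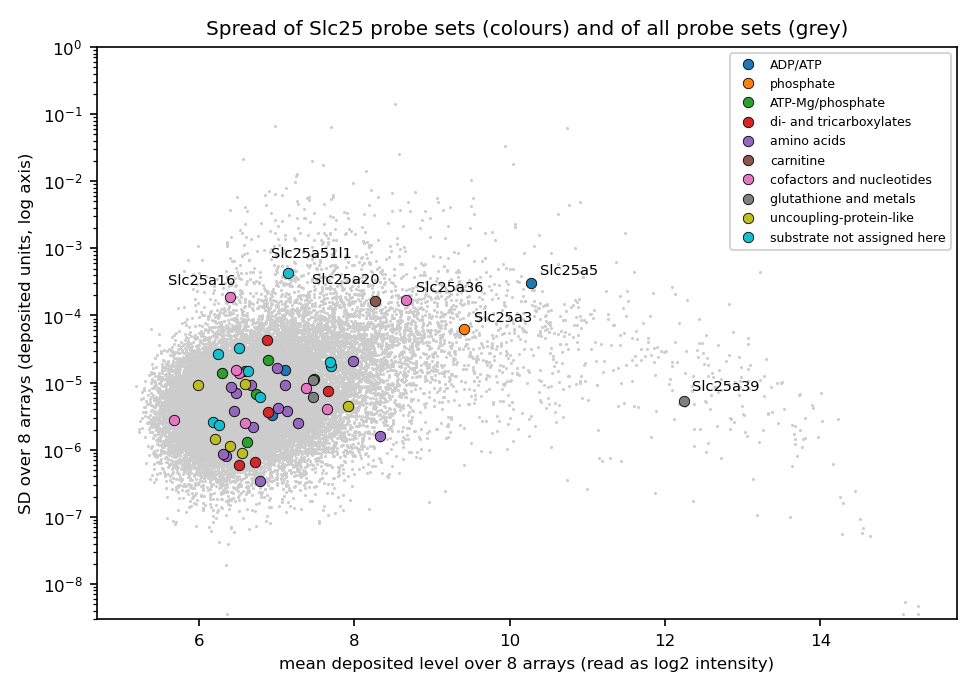
The horizontal axis gives the mean level of each probe set over the 8 arrays and the vertical axis, on a log scale, its SD over them. Slc25 probe sets are coloured by substrate and all others are grey, leaving out those with an SD of 0. Slc25a51l1 (4.36e-04) and Slc25a5 (3.01e-04) are the highest members, and the bright Slc25a39 (5.33e-06) is near the middle of the grey cloud in spread.

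Replicate 3 was the lowest array of both groups for 10 of the 39 genes, 25.6%, against 19.7% of all genes. These were Slc25a3, Slc25a4, Slc25a5, Slc25a11, Slc25a16, Slc25a17, Slc25a28, Slc25a30, Slc25a36 and Slc25a46. Among genes above the 90th percentile it was 4 of 8 carriers and 42.6% of 2331 genes. Normal replicate 3 was the lowest of the 8 arrays for 24.6% of all genes and the highest for 19.5%. In the family these shares were 15.4% and 15.4%. This array also had the lowest scaled level of the 7 T cell markers, -1.60, where the other arrays lay between -0.428 and 1.32. High-fat replicate 3 stood at -0.388 for these markers, above high-fat replicates 1 (-0.425) and 4 (-0.428). The summed level of these markers was 64.360 to 64.362 in the normal group and 64.361 in all high-fat arrays, with none at 0, and their part in the low values of the carriers was not tested.

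Probe sets of the same gene often differed in sign. Of the 12 genes with more than 1 probe set, 9 had probe sets on both sides of 0 and 3 (Slc25a10, Slc25a23 and Slc25a32) on 1 side. The levels of 4 of these genes, Slc25a30, Slc25a36, Slc25a39 and Slc25a46, differed by more than 1 between their probe sets. The RefSeq annotation of GRCr8 lists pseudogenes for 12 of the 39 genes, with 9 for Slc25a5, 8 for Slc25a39, 2 for Slc25a3 and 1 each for the other 9. Whether their transcripts reach these probes was not tested, and the levels of Slc25a5 and Slc25a39 are uncertain to that extent.

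Genes that work with the carriers were described beside them. Of 66 symbols listed as partners 55 were measured. In the high-fat group 31 had the higher mean and 24 the lower, where 47.4% of all genes were higher. With centring 0 were higher and 55 lower, and 2.38% of all genes were higher. With quantile normalization on top 9 were higher and 21 lower, and 24.0% of all genes were higher. By limma 0 partners passed the adjusted p, where 0% of all probe sets passed. An unadjusted p under 0.05 by limma was found for 0 partners, for 284 of all 14217 genes and for 2.25% of all probe sets. The median difference was 0.0672 within-group SDs, against -0.0374 for all genes. Of 5 family members with other symbols, the uncoupling protein Ucp2 had a level of 10.03 and a difference of -0.126, the outer membrane proteins Mtch1 and Mtch2 had levels of 8.30 and 8.00 and differences of -0.367 and -0.319, and Ucp3 (7.34) and Ucp1 (6.12) differed by 0.590 and -0.141. Other mitochondrial transport genes had 6 of 10 higher, users of ATP and phosphate 4 of 8, enzymes of the shuttles and of citrate 7 of 11, the carnitine system 4 of 4 (0 of 4 with centring or with quantile normalization on top), enzymes of the urea cycle and of glutamate 6 of 9, and partners of the cofactor carriers 3 of 8. The smallest p belonged to the arginases Arg2 (-1.12 ± 0.682, SE) and Arg1 (1.01 ± 0.684) and to the ATP synthase subunit Atp5po (-0.964 ± 0.686), each with an adjusted p of 1 by limma. Their levels were 6.39, 5.84 and 8.53, at the 36.3rd, 6.30th and 95.7th percentiles, so that Arg1 lay at the dim end of the array. Arg2, the mitochondrial arginase, stood at 1.62, -1.02, 1.46 and 0.182 in the normal group and at -0.359, -0.738, 0.253 and -1.39 in the high-fat group, so that the groups overlapped. The normal arrays of Arg1, the cytosolic arginase of the urea cycle, stood at -0.488, -0.236, 0.779 and -2.07 and its high-fat arrays at 1.34, 0.599, -0.547 and 0.628. Normal replicate 4 was the lowest of them. Atp5po stood at 0.567, 1.10, -1.34 and 1.60 in the normal group and at -0.113, -0.446, -1.33 and -0.0385 in the high-fat group, with replicate 3 the lowest of each. Leaving out 1 array moved Arg2 between -1.64 (without normal replicate 2) and -0.764 (without normal replicate 1), Arg1 between 0.486 (without normal replicate 4) and 1.44 (without normal replicate 3), and Atp5po between -1.57 (without normal replicate 3) and -0.593 (without normal replicate 4). Cpt1a, which makes the acylcarnitines that Slc25a20 carries, had a level of 8.07 and a difference of 0.0452.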

How the data were processed

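The authors deposited 1 table of 31099 probe sets and 8 arrays, hybridised with biotin-labelled RNA made from 200 ng of total RNA, per the labels' protocols. The deposited values were read as log2 intensities from their range of 5.19 to 15.25, but the authors' background correction, normalization, probe summary and log base are not given in the sources used here. Left out were 57 control probe sets. Gene names came from the platform annotation, and 39 of 39 member genes matched the GRCr8 annotation by gene number. RefSeq's other 10 coding Slc25a genes had no probe set with that symbol as its only entry and are not analysed here.

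All 31042 probe sets were fitted with limma 3.58.1 in R 4.3.3 (lmFit, eBayes, two-sided, no covariates), with Benjamini-Hochberg adjustment over all of them and a threshold of 0.05. The fit was checked on simulated data with independent noise and shifts larger than any difference of the family. That check does not show how often differences of the size found here would be detected. Where an unadjusted p is given without its adjusted p, the adjusted p was 1 in that fit. Titles number the arrays of each group as biological replicates, and the number of arrays limits the precision. Members, substrate classes and gene lists were chosen with earlier results of these data known. Described fully were, in each class, the gene with the highest level and that with the smallest p, and the 3 partner genes with the smallest p; Slc25a38, Slc25a51l1 and the Slc25a15 probe sets were chosen after their values were seen. Scaled levels of markers are means of values scaled to an SD of 1 over the 8 arrays.

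Same-numbered arrays correlated, in their deviations from the group means, at -0.130, 0.215, 0.384 and 0.151. Differently numbered arrays of the 2 groups correlated at -0.308 to 0.207. The titles do not say that equal numbers are paired, and the main fit took no pairs. Whether equal numbers share a step of the work was not tested. The alternatives were quantile normalization, centring, the probe sets above the median level alone, array weights, eBayes with trend and robust settings, the replicate block, leaving out each array, and averaging all probe sets of a gene.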

Additional observations from a re-analysis of the deposited data

Results flagged for a closer look

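In 4 of 40 groups of 4 arrays tested (20 genes in 2 groups), 1 array lay far from the other 3, by the share of the whole range that separates it from its nearest neighbour. The cut-off is set to flag about 1 in 20 groups of independent Gaussian values. These genes share the same arrays and were partly chosen by their p. The share over all genes was not computed, so no excess can be read from the count. In the normal group these were the lowest array of Slc25a22, replicate 4, with a share of 0.921, the highest array of Slc25a33, replicate 3 (0.856), and the lowest array of Slc25a46, replicate 3 (0.883). In the high-fat group it was the lowest array of Slc25a39, replicate 4 (0.839).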

How the results depend on the processing

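No Slc25 gene passed the adjusted threshold under any of the 15 alternatives, where the smallest adjusted p of a gene described in full was 0.191, by limma with centring. Among all probe sets, quantile normalization gave 32 calls, 30 of them with no spread left within the groups, and the other alternatives 0. Leaving out 1 array in turn gave 12 to 17 genes higher in the high-fat group, where 45.4% to 50.4% of all genes were higher. It gave 0 to 2 genes whose groups did not overlap, against 2.36% to 4.85% of all genes. These were Slc25a29 without normal replicate 1 and Slc25a12 without normal replicate 3. Without high-fat replicate 4 they were Slc25a18 and Slc25a39, against 2.81% of all genes. Centring, which shifts every probe set alike, gave 2 genes higher and 19 that did not overlap (49.1% of all genes did not overlap with it). With the replicate block 12 genes were higher and the median difference was -0.386 within-group SDs. The block changed no call. An unadjusted p under 0.05 by limma was reached by Slc25a3 with centring and by Slc25a4 with the block. Slc25a12 and Slc25a53 reached it without normal replicate 3, and Slc25a39 without high-fat replicate 4. Of all 31042 probe sets, 603, 1111, 1262 and 736 did so in these fits, in the same order. Normal replicates 2, 3 and 4 and high-fat replicates 2 and 3 correlated best with their own number. Normal replicate 1 and high-fat replicates 1 and 4 did not.

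Of 20 genes described in full, 4 (Slc25a33, Slc25a36, Slc25a41 and Atp5po) kept their sign in every alternative that gave them a value. The unit is the within-group SD of each alternative, and that of all 8 arrays where 1 is left out. Quantile normalization left 9 of the 20 with equal groups, and turned Slc25a11, Slc25a20 and Slc25a22 to -0.707 and Slc25a4 to 0.707, the value that 7 tied arrays and 1 different one give whatever the size of the difference. Centring turned Slc25a11 to -1.29, Slc25a20 to -0.350, Slc25a21 to -0.485, Slc25a22 to -1.18, Slc25a39 to -1.07, Slc25a45 to -1.20 and Arg1 to -1.10. Array weights turned Slc25a20 to -0.131. The mean over all probe sets turned Slc25a27 to 0.0494, Slc25a39 to -0.218 and Slc25a46 to 0.177. Leaving out 1 array gave ranges across 0 for Slc25a11 (-0.0903 to 0.771), Slc25a20 (-0.486 to 0.467), Slc25a23 (-0.771 to 0.187), Slc25a3 (-0.957 to 0.0139), Slc25a30 (-0.740 to 0.0996), Slc25a46 (-0.583 to 0.358) and Slc25a5 (-0.177 to 0.596). The other ranges not given in the report were -1.68 to -0.903 for Slc25a18, 0.0142 to 0.871 for Slc25a21, 0.166 to 1.01 for Slc25a22, -1.40 to -0.476 for Slc25a27, -1.22 to -0.331 for Slc25a33, 0.323 to 1.25 for Slc25a39, -1.44 to -0.658 for Slc25a4 and 0.496 to 1.35 for Slc25a45. The cause was not tested.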
